A study of Mus musculus with 18 samples.

Results

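UDP-glucuronosyltransferases (UGTs) and the enzyme that makes UDP-glucuronic acid were followed in mouse liver through 10 genes: Ugdh for this sugar donor and Ugt2b1, Ugt2b5, Ugt2b34, Ugt2b35, Ugt2b36, Ugt2b37, Ugt2b38, Ugt2a3 and Ugt3a1 for the transferases. They were chosen by name, as the probe sets annotated to these symbols, and each gene was read from its probe set with the highest mean over 18 arrays. They are 10 of 18193 genes on the array, and all 10 passed the filter on dim probe sets that left 12578 genes for testing. The study crossed genotype with dietary fat. Control mice were Alb-Cre-/-/POR-lox+/+ and knockout mice were Alb-Cre+/-/POR-lox+/+, so that both carried the floxed alleles of Por, the P450 reductase gene, and only the knockout carried the Cre, whose albumin promoter drives deletion in hepatocytes. Each genotype was fed a synthetic diet with lard, canola oil or a fish/fungal mixture (menhaden and ARASCO oils) as its fat. The males ate these diets from week 4 for 8 weeks, were 12 weeks old at sampling and had been fasted for 4 h. Each of the 6 groups was measured on 3 Affymetrix arrays, each holding equal RNA amounts from the livers of 3 mice. The pool is the replicate, and the p-values below measure the spread between pools. Sample labels state 7% fat and the series text 6%.

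Glucuronidation makes bilirubin and many drugs and steroids water-soluble in the liver. Ugdh oxidises UDP-glucose to UDP-glucuronic acid in the cytosol, carriers take this donor into the endoplasmic reticulum, and UGTs there join the sugar to the substrate. The resulting glucuronides leave the hepatocyte through ABC transporters into bile or blood, and beta-glucuronidase can split them again. Many drug-inducible genes of this pathway respond to the nuclear receptors CAR and PXR, to the aryl hydrocarbon receptor or to NRF2. The P450 enzymes that often act before UGTs take their electrons from the reductase deleted here.

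Of the 10 genes, 8 lie side by side over 534 kb in the Ugt2 cluster on chromosome 5 (RefSeq annotation, mouse build GRCm38.p6). The cluster holds 10 Ugt genes, of which Ugt2a1 and Ugt2a2 lie beyond Ugt2b38, outside these 534 kb. Their order by coordinate is Ugt2b34, Ugt2b1, Ugt2b35, Ugt2b36, Ugt2b5, Ugt2b37, Ugt2a3 and Ugt2b38, and all but Ugt2b35 lie on the minus strand. Ugdh lies apart on chromosome 5 (65413207 to 65435842) and Ugt3a1 on chromosome 15 (9279822 to 9315038). Genes of the cluster arose from gene duplication, and the start regions of some of them are alike. Over 250 bases upstream of the start, Ugt2b37 and Ugt2b38 were 85.2% identical, Ugt2b5 and Ugt2b38 81.5%, and Ugt2b5 and Ugt2b37 73%, while the next pair of members reached 60.4%. Between members next to each other, identity ran from 47.2% (Ugt2b37 and Ugt2a3) to 73% (Ugt2b5 and Ugt2b37). Ugt2b38 and Ugt3a1, on different chromosomes, were 52.3% identical. Over the nearest 120 bases Ugt2b36 was as close to Ugt2b38 (76%) as Ugt2b37 was (76.1%), so that it does not stand apart there. The 120 bases just upstream of the annotated start are shown for Ugt2b37, Ugt2b38 and Ugt2b5, because their upstream sequences are alike and only Ugt2b37 passed the test below. They are also shown for Ugt2b34 and Ugt2b35, the other transferases higher in the knockout. They are from RefSeq, 5′ to 3′ on the gene's strand, and capitals mark the hexamer AGGTCA (nuclear receptor half-site) or AGTTCA (its CAR and PXR variant) on either strand.
Ugt2b37 (chr5:87254789-87254908, minus strand): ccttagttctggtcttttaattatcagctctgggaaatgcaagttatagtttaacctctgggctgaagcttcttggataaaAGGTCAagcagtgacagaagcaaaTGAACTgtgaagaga
Ugt2b38 (chr5:87424204-87424323, minus strand): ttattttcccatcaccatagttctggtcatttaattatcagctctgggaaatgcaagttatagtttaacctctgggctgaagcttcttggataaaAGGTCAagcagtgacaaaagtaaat
Ugt2b5 (chr5:87140341-87140460, minus strand): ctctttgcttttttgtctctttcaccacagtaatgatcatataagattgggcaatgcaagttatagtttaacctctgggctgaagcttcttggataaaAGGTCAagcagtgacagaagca
Ugt2b34 (chr5:86906938-86907057, minus strand): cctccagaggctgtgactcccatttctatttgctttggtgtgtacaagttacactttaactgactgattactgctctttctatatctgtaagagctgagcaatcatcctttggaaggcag
Ugt2b35 (chr5:87000740-87000859, plus strand): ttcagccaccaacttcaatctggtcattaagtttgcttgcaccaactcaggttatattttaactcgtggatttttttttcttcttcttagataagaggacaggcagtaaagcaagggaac

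Each motif was searched on both strands of the 250 bases upstream, in the members and in 32851 RefSeq mouse promoters of the same length. AGGTCA was found in 5 of the 10 members, at 39 bases before the start in Ugt2b37, 25 in Ugt2b38 and Ugt2b36, 22 in Ugt2b5 and 215 in Ugt2b35, against 14% of all promoters. In Ugt2b37, Ugt2b38, Ugt2b36 and Ugt2b5 it stands between the same flanking letters, so these hits are not independent of one another. AGTTCA was found in 1 member, Ugt2b37, on the minus strand 15 bases before the start, against 11.8% of all promoters. The search ended at the annotated start. In Ugt2b38, Ugt2b36 and Ugt2b5 AGGTCA lies nearer the start. The stretch matching the AGTTCA site of Ugt2b37 thus falls at or past their starts and was not searched as a whole. GTTAAT, the HNF1 half-site, was found in 2 members, Ugt2a3 and Ugt3a1, against 6.43%. Only exact matches to each hexamer were searched, so sites that differ from it by a letter were not counted. The motifs do not overlap one another in the sequences shown. These matches describe letters and not binding.

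The values are deposited RMA expression values on a log2 scale, in which 1 unit is a doubling. The lowest value over all probe sets is 2.409 and the highest 14.893, the medians of the 18 arrays lie between 5.229 and 5.286, and arrays of the same group correlated at 0.99283 to 0.99691. The deleted gene, Por, was not analysed here, and no value of it stands behind the genotype labels. The hepatocyte markers Alb, Ttr, Apoa1, Serpina1c and Cps1 had mean levels per array of 14.36 to 14.45 in controls and 14.34 to 14.41 in knockouts, and the kidney tubule markers Umod and Slc34a1 were dim. Levels are not compared between genes, because probe sets differ in brightness for reasons of their own. In whole liver, fewer cells of a type and less RNA per cell cannot be told apart.

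The first question was which genes of the pathway differ when hepatocytes lack the reductase. Averaged over the 3 diets, with each diet weighted equally, 4 of the 10 genes were higher in the knockout and 0 lower by limma at an adjusted p under 0.05: Ugt2b37 (2.69-fold), Ugdh (1.35-fold), Ugt2b35 (1.28-fold) and Ugt2b34 (1.20-fold). Over all genes tested, 575 (4.57%) were called, of which 480 (3.82% of genes) were higher and 95 lower. The median change was 0.07 on the log2 scale over the 10 members and -0.0047 over all genes. A second normalization of the arrays moved the share of higher calls over all genes from 83.5% to 71%, and centring the arrays moved the median change of all genes by -0.0163.

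Ugdh, which makes the UDP-glucuronic acid used in glucuronidation, was at 10.40, 10.51 and 10.30 in the 3 control pools on lard, 10.49, 10.89 and 10.12 on canola and 10.92, 10.88 and 10.95 on fish/fungal oil. In the knockout it was at 11.48, 10.95 and 10.81 on lard, 11.13, 10.97 and 10.50 on canola and 10.96, 11.57 and 11.00 on fish/fungal oil. Knockout pools lay above control pools without overlap on lard and on fish/fungal oil, and the genotypes overlapped on canola. The averaged change was 0.43 ± 0.12 (SE) on the log2 scale, with a 95% interval from 0.18 to 0.68 and an adjusted p of 0.0478 by limma. This call sits at the threshold: 4 of 10 other settings of the analysis lost it (adjusted p of 0.0507 to 0.0625), and 13 of the 18 fits that leave out 1 array lost it, with an adjusted p of up to 0.104 without replicate 1 of the knockout canola group.

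Ugt2b37, a transferase of the middle of the cluster, showed the widest difference of the 10. Its control pools were at 5.40, 5.48 and 6.34 on lard, 5.54, 5.51 and 5.88 on canola and 5.93, 6.03 and 5.58 on fish/fungal oil. Its knockout pools were at 7.98, 7.04 and 7.54 on lard, 7.16, 6.30 and 5.91 on canola and 7.45, 6.51 and 8.64 on fish/fungal oil. All 3 knockout pools lay above all 3 control pools on every diet, which held for 0.93% of all genes, and among the 10 members for Ugt2b37 alone. The margin on canola was narrow, with the lowest knockout pool at 5.91 and the highest control pool at 5.88. The averaged change was 1.43 ± 0.24 (interval 0.92 to 1.93, adjusted p = 0.00196 by limma), and it stayed between 1.24 and 1.60 when any 1 array was left out. The gene is dim in control liver, where its lowest pool was 0.17 above the median of its array. The spread among its pools (within-group SD 0.60) was wider than for 99.5% of the genes tested.

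**Figure D1:**
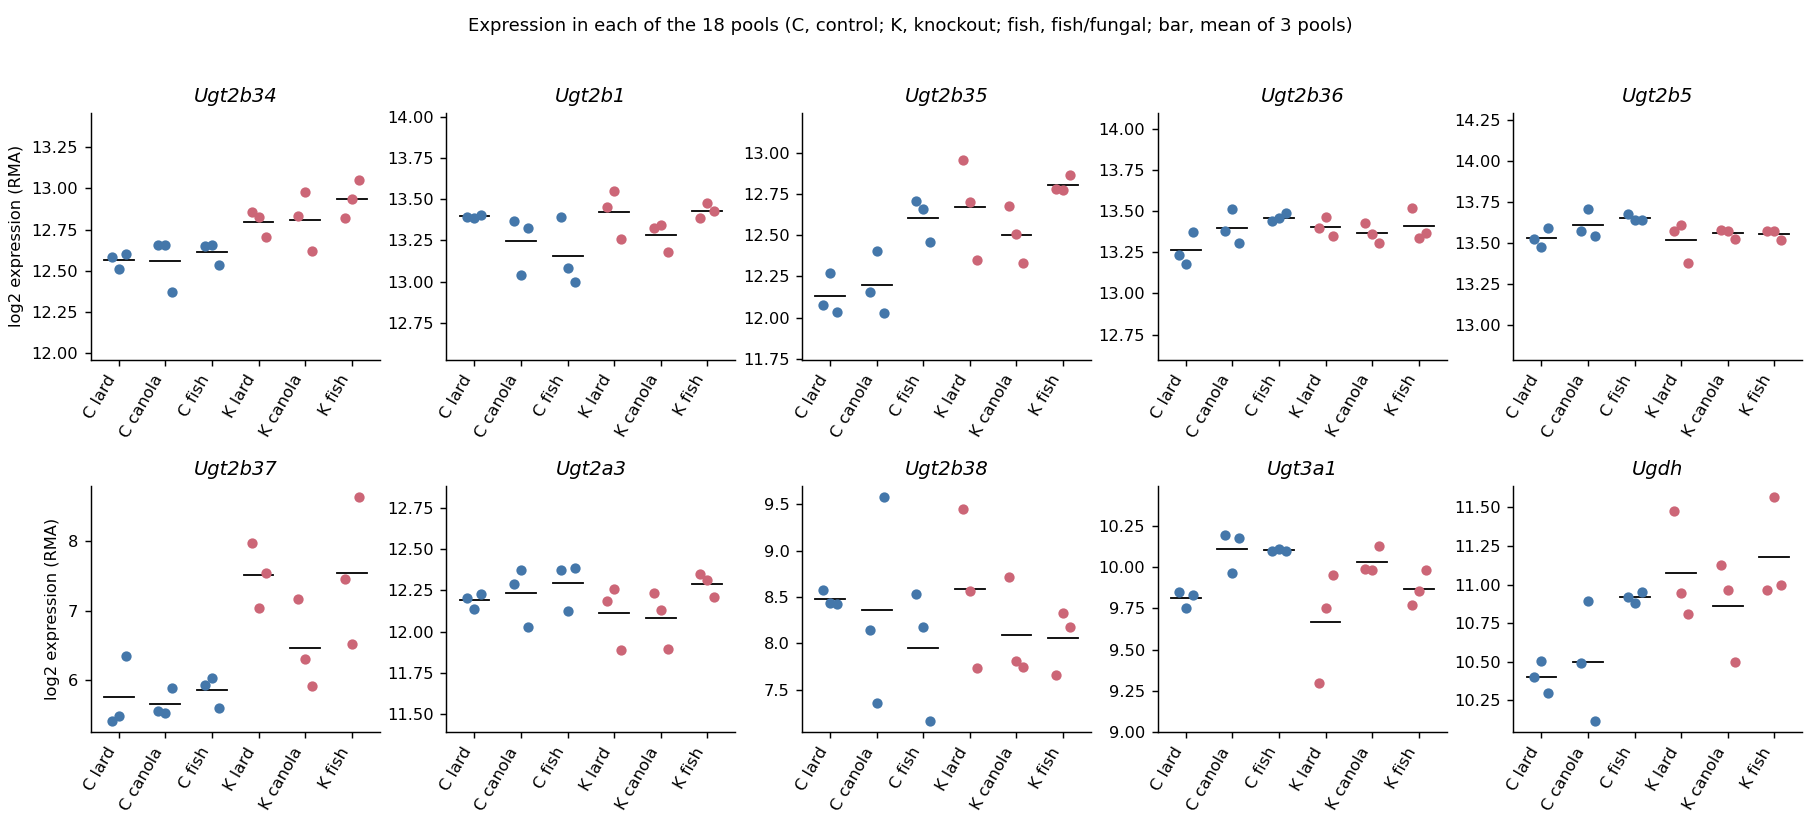
Expression of the 10 genes on the log2 scale in each of the 18 pools. Each point is 1 array of RNA from 3 mice, bars are means of 3 pools, blue is control (C) and red knockout (K), and the vertical scales differ between panels. Ugt2b37 runs from 5.40 to 6.34 in controls and from 5.91 to 8.64 in knockouts, while the pools of Ugt2b5 all lie between 13.37 and 13.71.

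Ugt2b35, the plus-strand member of the cluster, was at 12.08, 12.27 and 12.03 in control pools on lard, 12.16, 12.40 and 12.03 on canola and 12.71, 12.66 and 12.46 on fish/fungal oil. The knockout pools were at 12.96, 12.71 and 12.35 on lard, 12.68, 12.51 and 12.33 on canola and 12.78, 12.78 and 12.87 on fish/fungal oil. The genotypes did not overlap on lard or on fish/fungal oil, where the control pools were themselves high. The averaged change was 0.35 ± 0.08 (interval 0.19 to 0.51, adjusted p = 0.0128 by limma).

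Ugt2b34, at the edge of the cluster, had control pools at 12.58, 12.51 and 12.60 on lard, 12.65, 12.66 and 12.37 on canola and 12.65, 12.66 and 12.54 on fish/fungal oil. Its knockout pools were at 12.86, 12.83 and 12.70, at 12.83, 12.98 and 12.62, and at 12.82, 12.94 and 13.05 on the same diets. Control pools thus stayed at or below 12.66 and 1 of 9 knockout pools fell below that, on canola. The averaged change was 0.27 ± 0.05 (interval 0.15 to 0.38, adjusted p = 0.00776 by limma). A second probe set of Ugt2b34, tested with 1 test per probe set, was higher by 0.32 ± 0.06 (adjusted p = 0.00633 by limma).

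The other 6 genes did not pass the test in any averaged comparison. Ugt2b1, a transferase of the liver, was at 0.11 ± 0.06 (interval -0.01 to 0.23, adjusted p = 0.334). Its genotypes stood furthest apart on fish/fungal oil, at 13.39, 13.08 and 13.00 in controls against 13.38, 13.48 and 13.43 in knockouts, and overlapped there too (0.27 ± 0.10, adjusted p = 0.514 by limma). Ugt2b36 and Ugt2b5 were held to narrow intervals, from -0.06 to 0.10 and from -0.13 to 0.02. All 18 pools of Ugt2b36 lay between 13.18 and 13.52, and those of Ugt2b5 between 13.37 and 13.71. Their pools scattered little, with a smaller within-group SD than for all but 4.83% and 2.27% of genes. Ugt2a3, with pools from 11.89 to 12.39, had a value of -0.08 ± 0.07 (interval -0.21 to 0.06, adjusted p = 0.595). Ugt3a1, which belongs to a separate UGT family and uses sugars other than glucuronic acid, had the lowest averaged value, -0.15 ± 0.07 (interval -0.31 to 0.00, adjusted p = 0.283). Its knockout pools lay below the control pools on fish/fungal oil, at 9.77, 9.86 and 9.98 against 10.10, 10.11 and 10.10, and overlapped them on the other diets. On a second probe set of Ugt3a1 the genotypes overlapped on fish/fungal oil too, at 9.72, 9.91 and 9.87 in knockouts against 9.86, 9.97 and 9.92. With 1 test per probe set, the averaged value of that probe set was -0.09 ± 0.07 (adjusted p = 0.585 by limma).

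Ugt2b38, whose upstream sequence is the closest to that of Ugt2b37, scattered too widely for a difference between genotypes to be read. It was at 8.57, 8.44 and 8.42 in control pools on lard, 8.15, 7.36 and 9.58 on canola and 8.53, 8.17 and 7.16 on fish/fungal oil. The knockout pools were at 9.45, 8.57 and 7.73, at 8.72, 7.82 and 7.75, and at 7.66, 8.32 and 8.18. The genotypes overlapped on every diet, and pools of 1 group differed by over 2 log2 units, as between 7.36 and 9.58 on canola. The averaged change was -0.02 ± 0.28, its interval from -0.61 to 0.56 is wide, and its sign turned in 7 of the 18 fits that leave out 1 array. Its within-group SD of 0.70 was larger than for 99.7% of genes. The difference between the changes of Ugt2b37 and Ugt2b38 was not tested, and how far probes of these like genes share signal was not tested.

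**Figure D2:**
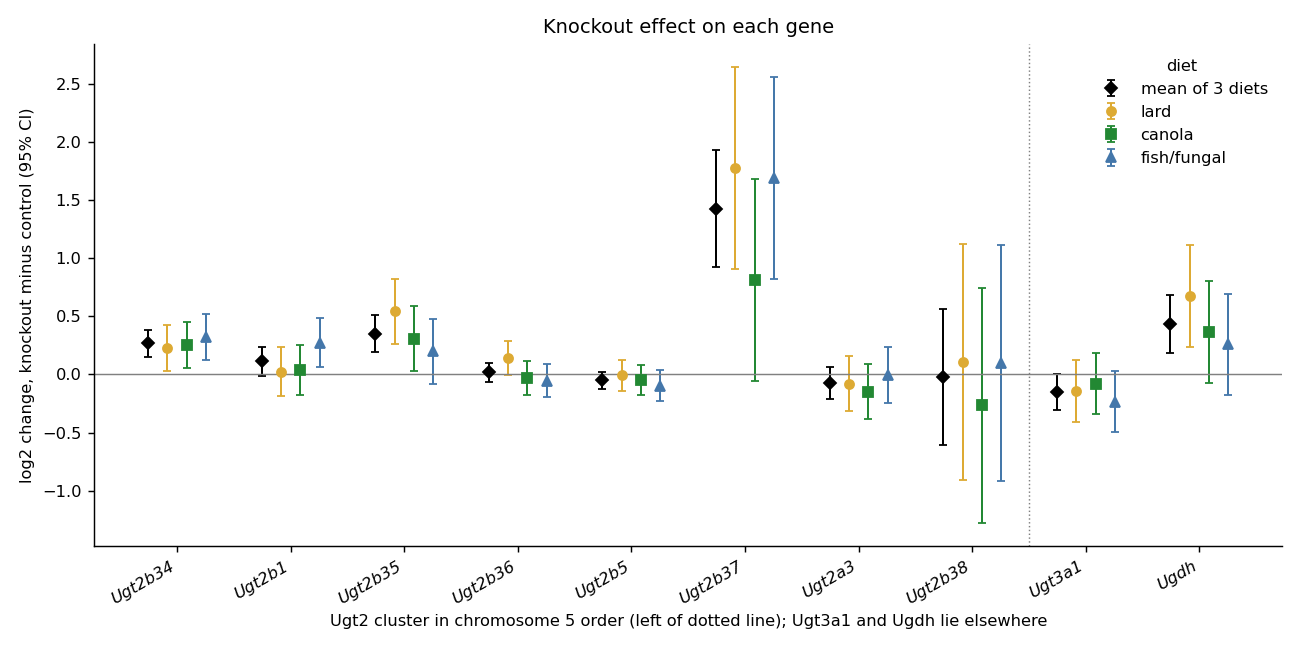
Knockout minus control difference on the log2 scale for each gene, with 95% intervals, averaged over 3 diets (black diamonds) and on lard, canola and fish/fungal oil. The 8 genes left of the dotted line stand in their order along chromosome 5. The averaged intervals of Ugt2b34, Ugt2b35, Ugt2b37 and Ugdh lie above 0, with Ugt2b37 at 1.43 and its flanking genes Ugt2b5 and Ugt2a3 at -0.05 and -0.08.

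Along the cluster, Ugt2b37 lies between Ugt2b5 and Ugt2a3, and Ugt2b35 between Ugt2b1 and Ugt2b36, none of which passed the test. Differences between neighbours were not tested.

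Within single diets the fits had 3 pools a side and few genes were called. On lard, 1 of the 10 genes passed, Ugt2b37, at 1.78 (3.43-fold, adjusted p = 0.048 by limma), against 0.986% of all genes. That call was lost in 6 of 11 other settings (adjusted p of 0.0511 to 0.0731) and in 14 of the 18 fits that leave out 1 array, with an adjusted p of up to 0.208 without replicate 1 of the knockout lard group. On canola Ugt2b37 was at 0.81 (adjusted p = 0.85) and on fish/fungal oil at 1.69 (adjusted p = 0.128), and 0 members passed on either diet, against 0.0636% and 0.294% of all genes. Ugt2b34 kept a like size on the 3 diets, at 0.23 on lard, 0.25 on canola and 0.32 on fish/fungal oil. Ugt2b35 was at 0.54 on lard (adjusted p = 0.0664), 0.31 on canola and 0.20 on fish/fungal oil, and Ugdh at 0.68 (adjusted p = 0.166), 0.37 and 0.26. At an unadjusted p under 0.05, 4 members were higher on lard, 2 on canola and 3 on fish/fungal oil, against 7.27%, 4.46% and 4.67% of all genes. At that level 0 members were lower on any diet, against 3.26%, 1.68% and 2.96% of all genes. Without overlap of pools, 4 members were higher in the knockout on lard (Ugdh, Ugt2b34, Ugt2b35 and Ugt2b37), against 9.14% of all genes, and 1, Ugt2b37, on canola, against 7.04%. On fish/fungal oil the same 4 members as on lard were higher, against 5.72% of all genes, and 2 were lower, Ugt2b5 and Ugt3a1, against 5.18%. The second probe set of Ugt3a1 overlapped on that diet. Ugt2b5 was there at 13.67, 13.64 and 13.64 in controls and at 13.57, 13.57 and 13.52 in knockouts, a difference of -0.10 ± 0.06 (adjusted p = 0.776 by limma).

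Whether the knockout difference depends on the fat was tested directly. The interaction F test called 0 of the 10 members and 0% of all genes, with 0 members and 1.92% of all genes at an unadjusted p under 0.05. Ugt2b37 shows how wide the error is: its knockout change on canola minus that on lard was -0.97, with an interval from -2.20 to 0.26. For Ugt2b35 the change on fish/fungal oil minus that on lard was -0.34 (interval -0.74 to 0.05, unadjusted p = 0.0844), and for Ugdh it was -0.42 (interval -1.04 to 0.20, unadjusted p = 0.172).

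The order of the 6 group means of Ugt2b37 was control canola (5.64 ± 0.21, SD, n = 3), control lard (5.74 ± 0.52), control fish/fungal (5.85 ± 0.23), knockout canola (6.46 ± 0.64), knockout lard (7.52 ± 0.47) and knockout fish/fungal (7.54 ± 1.07). The 3 control groups differ by less than their spread. The step from knockout canola to knockout lard is the widest among neighbours: canola minus lard in the knockout was -1.06 ± 0.41, which reached an unadjusted p of 0.0194 but an adjusted p of 0.901 by limma. Fish/fungal minus canola in the knockout was 1.08 (adjusted p = 0.665).

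The diets were then compared within each genotype, to see whether the fat alone moves these genes. No member passed the test in any of the 6 comparisons. The share of all genes called was 0.716% for fish/fungal minus lard in controls, 0.262% for fish/fungal minus canola and 0% for canola minus lard. In the knockout it was 0.461%, 0.159% and 0% for the same pairs. These comparisons share arrays with each other and with the knockout comparisons.

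In control livers, Ugt2b35 was 0.48 ± 0.13 higher on fish/fungal oil than on lard (interval 0.20 to 0.76, unadjusted p = 0.00204, adjusted p = 0.151 by limma), and 0.41 above canola (adjusted p = 0.379). All 3 fish/fungal pools, at 12.46 or more, lay above all 6 pools of the other oils, at 12.40 or less. In controls, fish/fungal pools lay above lard pools without overlap for 6.2% of all genes, and above canola pools for 789 of 12578. How many genes met both rules was not counted. Ugdh was 0.52 ± 0.21 higher on fish/fungal oil than on lard (interval 0.08 to 0.95, adjusted p = 0.496 by limma). Of 11 other settings of the analysis, 10 called 0 members here. The 1 that called Ugdh (adjusted p = 0.0388 by limma) held only these 2 groups. Their SDs were 0.11 on lard and 0.04 on fish/fungal oil, against a within-group SD of 0.29 for Ugdh over all groups. In the knockout, fish/fungal minus lard was 0.14 for Ugt2b35 and 0.10 for Ugdh. Fish/fungal minus canola in the knockout was 0.30 (adjusted p = 0.771) for Ugt2b35 and 0.31 (adjusted p = 0.979 by limma) for Ugdh. In controls that difference was 0.41 and 0.42. As levels, the control fish/fungal means of both genes, 12.61 and 10.92, were close to or above the knockout canola means, 12.51 and 10.86.

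**Figure D3:**
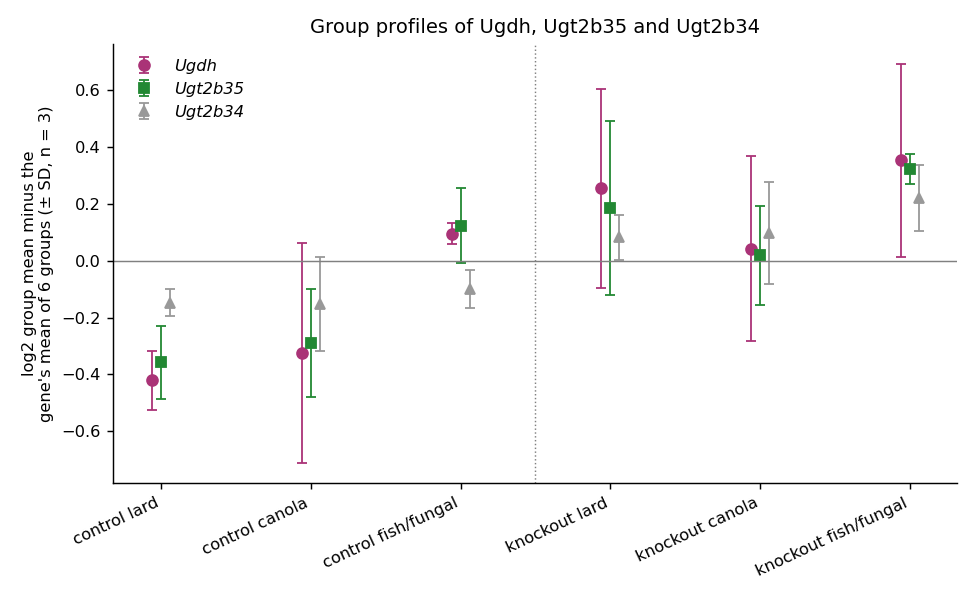
Mean of 3 pools in each of the 6 groups for Ugdh, Ugt2b35 and Ugt2b34, on the log2 scale after subtracting each gene's mean over the groups, with SD as bars. Ugdh and Ugt2b35 follow each other from control lard, their lowest group, to knockout fish/fungal, their highest, and both are high in control fish/fungal pools, whereas Ugt2b34 is low in all 3 control groups.

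Ugdh and Ugt2b35 had the most similar profiles of any pair among the 10 genes: their centred group means differed by 0.0453 (root mean square, log2 units, over 6 groups). Ugt2b5 and Ugt2b36 followed at 0.0471, a pair whose means hardly moved. Within-group SDs were 0.29 for Ugdh and 0.18 for Ugt2b35, wider than these gaps, so the order of the 2 pairs is not resolved. How far Ugdh and Ugt2b35 shared deviations between pools was not tested.

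Pools on fish/fungal oil lay above those on lard without overlap in control livers for 5 members, Ugdh, Ugt2b5, Ugt2b35, Ugt2b36 and Ugt3a1, against 6.2% of all genes. For Ugt3a1 this did not hold on its second probe set. At an unadjusted p under 0.05 that comparison held 4 members higher (Ugdh, Ugt2b35, Ugt2b36 and Ugt3a1) and 1 lower (Ugt2b1, -0.24 ± 0.10, adjusted p = 0.534), against 3.47% of all genes higher and 4.51% lower. Ugt2b36 was at 13.24, 13.18 and 13.38 on lard and at 13.44, 13.46 and 13.49 on fish/fungal oil, a difference of 0.20 ± 0.07 (adjusted p = 0.341).

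Ugt3a1 had its lowest group mean on lard in both genotypes, at 9.81 in controls and 9.67 in the knockout. In controls its lard pools were at 9.85, 9.75 and 9.83, its canola pools at 10.19, 9.97 and 10.18 and its fish/fungal pools at 10.10, 10.11 and 10.10. In the knockout, lard pools were at 9.30, 9.75 and 9.95 and canola pools at 9.99, 9.98 and 10.13. The knockout fish/fungal pools, at 9.77, 9.86 and 9.98, overlapped those on lard. On the probe set used, canola lay above lard without overlap in both genotypes. The difference was 0.30 ± 0.13 in controls (unadjusted p = 0.0285, adjusted p = 0.996) and 0.37 ± 0.13 in the knockout (unadjusted p = 0.00965, adjusted p = 0.839 by limma). Neither passed. Canola pools lay above lard pools in this way for 3.03% of all genes in controls and 4.39% in the knockout. On the second probe set of Ugt3a1 the control pools overlapped, at 9.90, 9.64 and 9.82 on lard against 10.13, 9.88 and 10.11 on canola. Its knockout pools did not, at 9.25, 9.71 and 9.83 against 10.02, 9.95 and 10.14.

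The Ugt1 family, which holds the bilirubin transferase Ugt1a1, is read on this array by 3 probe sets, each annotated to the same 8 Ugt1a genes. These genes splice different first exons onto common later exons, so that the probe sets cannot be given to a single gene. With 1 test for each of 23778 probe sets (3.41% called), all 3 were higher in the knockout by small amounts: 0.19 ± 0.03 (adjusted p = 0.0037), 0.21 ± 0.04 (adjusted p = 0.0101) and 0.23 ± 0.04 (adjusted p = 0.00565 by limma). The first was at 13.27 to 13.44 (median 13.35) in the 9 control pools and at 13.47 to 13.67 (median 13.54) in the 9 knockout pools. For that probe set and the last, all 9 knockout pools lay above all 9 control pools, as for 0.29% of probe sets, and this was seen for no probe set of the 10 members. Ugt3a2 was at 0.07 ± 0.08 in the same fit (adjusted p = 0.737), and the probe sets of Ugt8a and of Ugt2a1 with Ugt2a2 were dim.

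The steps before and after the transfer were read from lists of genes drawn up by role. These lists, and those of regulators, targets and cell markers below, were chosen with earlier results of these data known. Over all genes tested, 3.82% were higher in the averaged knockout comparison by limma, the share to set beside their counts. Of 5 genes of UDP-sugar supply, Ugdh was the 1 that passed. Ugp2, which makes UDP-glucose, was at -0.07 ± 0.04 (adjusted p = 0.436), and Pgm2, a phosphoglucomutase that feeds it, at 0.15 ± 0.06 (adjusted p = 0.193). Of 5 carriers related to UDP-sugar transport, Slc35b1 rose by 0.35 ± 0.07 (adjusted p = 0.0107 by limma), a protein of the endoplasmic reticulum later described as an ATP carrier. Slc35d1, a carrier of UDP-glucuronic acid, was at -0.05 ± 0.11 (adjusted p = 0.848).

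Of 5 genes of glucuronide export and hydrolysis, 2 rose and 0 fell. Abcc3, which exports glucuronides across the basolateral membrane to blood, rose by 1.18 ± 0.16 (2.27-fold, adjusted p = 0.000436 by limma). Gusb, the lysosomal beta-glucuronidase, rose by 0.27 ± 0.06 (adjusted p = 0.0135). Abcc2, the canalicular exporter into bile, was at 0.36 ± 0.18 (adjusted p = 0.306). Of 6 tested genes that use glucuronate for ascorbate or pentose synthesis, among them Gulo at 0.07, 0 passed in either direction, and their values ran from -0.07 to 0.07.

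**Figure D4:**
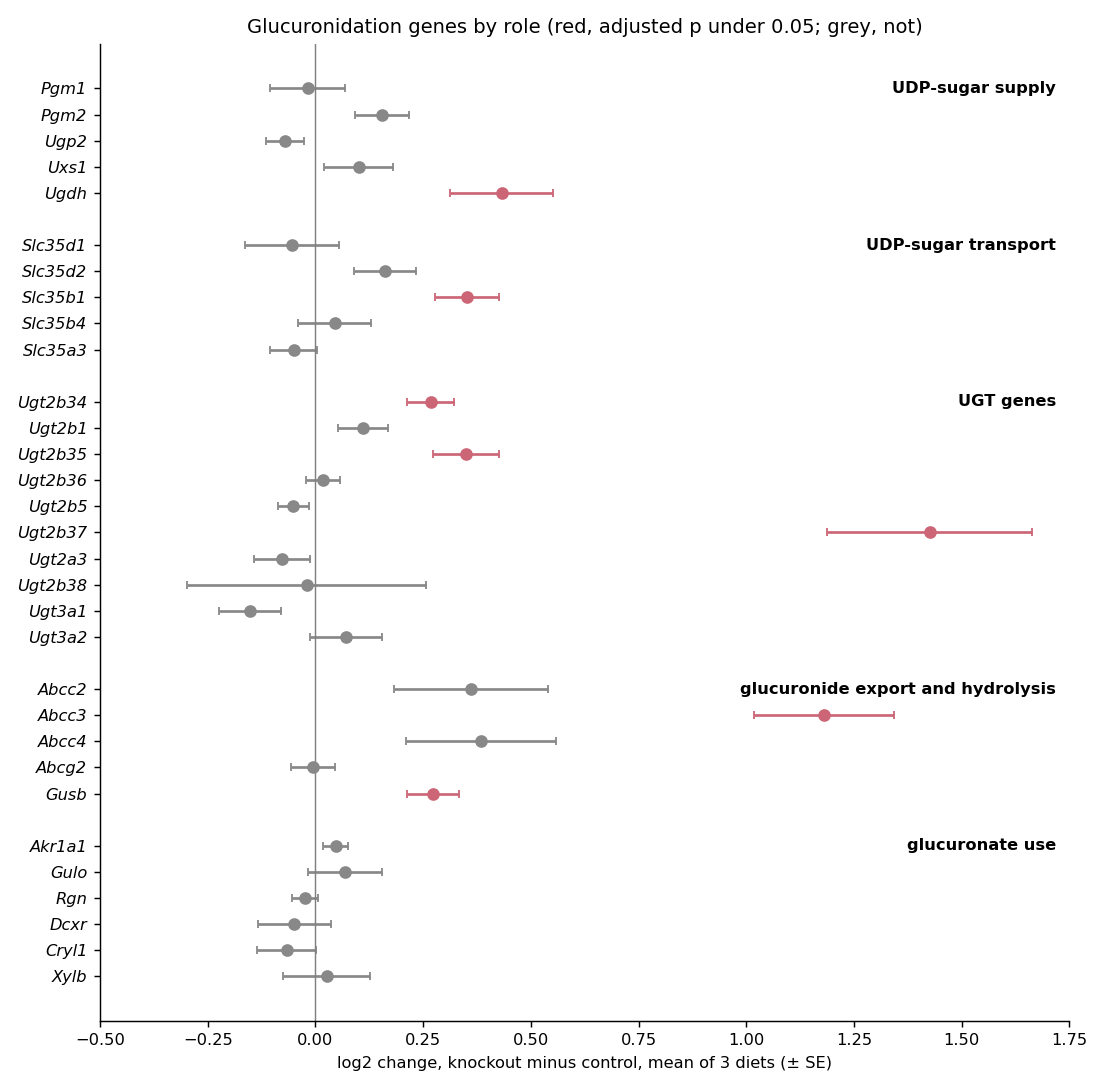
Averaged knockout minus control difference on the log2 scale with its standard error, for genes of UDP-sugar supply, UDP-sugar transport, the UGT genes, glucuronide export and hydrolysis, and glucuronate use. Red points passed an adjusted p under 0.05 and grey points did not. Ugt2b37 at 1.43 and Abcc3 at 1.18 stand to the right of all others, and the genes of glucuronate use lie between -0.07 and 0.07.

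Transcription factors known to act on UGT genes did not pass the test: 0 of 11 in either direction, with a median of -0.08. Nr1i3, which encodes CAR, was at 0.02 ± 0.11 (adjusted p = 0.947), Nr1i2, which encodes PXR, at 0.26 ± 0.12 (adjusted p = 0.269), and Ahr at 0.29 ± 0.10 (adjusted p = 0.136). Among 13 tested genes listed as CAR and PXR targets 12 rose and 0 fell, with a median of 1.06, against 3.82% of all genes higher. As this list was chosen with earlier results known, its count and median describe the listed genes only. The 4 with the smallest p were Cyp2c55 (4.14), Cyp2b10 (4.91), Gstm3 (3.04) and Ces2a (1.06). Abcc3 is also on that list. The listed genes ran from 0.28 to 4.91. Ugdh, Ugt2b34 and Ugt2b35 were at 0.27 to 0.43, and Ugt2b37 at 1.43 (interval 0.92 to 1.93). Differences between these members and the list were not tested. Of 8 tested NRF2 targets, 3 rose (Ephx1 by 0.43, Gsta2 by 0.99 and Hmox1 by 0.63) and 0 fell. Ephx1 also rose on fish/fungal oil over lard in controls, by 0.72 (adjusted p = 0.00615 by limma), and of 7 PPARalpha targets 0 passed for the knockout.

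Markers of other cells moved with genotype beside these results. Of 7 Kupffer cell and macrophage markers, 3 rose and 0 fell: Mmp12 by 1.61, Cd68 by 0.52 and Lyz2 by 0.54. The mean level of the list was 8.44 to 8.99 in control arrays and 8.77 to 9.67 in knockout arrays, and none of the 7 was dim. Of 7 pericentral hepatocyte markers, 3 rose (Cyp1a2 by 0.63, Rhbg by 0.70 and Oat by 0.42), while Glul was at 0.14 (adjusted p = 0.199) and Cyp2e1 at -0.0042. In the lymphocyte list Ighm fell by 0.58, and the Fabp2 of the intestine list fell by 1.08 on fish/fungal oil against lard in controls. None of the 5 hepatocyte, 4 periportal, 5 stellate, 4 endothelial or 2 cholangiocyte markers tested passed for the knockout. The part of these cell markers in the differences of Ugdh and the UGT genes was not tested.

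The 5 genes with group profiles most like that of Ugt2b37, by the root mean square difference of centred group means over the 6 groups, were Cbr3 (0.24), a carbonyl reductase, Lpl (0.24), lipoprotein lipase, Asns (0.26), asparagine synthetase, Sult1e1 (0.32), the oestrogen sulfotransferase, and Tnfrsf19 (0.32), a receptor of the TNF family. Their averaged knockout changes ran from 1.16 for Tnfrsf19 to 1.59 for Asns. Ugdh and Ugt2b35 had 3 of their 5 nearest genes in common (Eif4e3, Gyg and Slc50a1), a comparison made after their values were seen. Since these profiles differ by only 0.0453, shared nearest genes follow from that likeness and add no separate result. The others were Pla2g7, the nearest to Ugdh at 0.0544, and Ly86 for Ugdh, and Clec1b and AW112010 for Ugt2b35.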

How the data were processed

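RNA from liver pools of 3 mice was measured on 18 whole-genome Affymetrix mouse arrays. The deposited log2 values were made by the authors with RMA per the submitters' processing notes (version not given in the sources used here). The log2 scale was read from the values. They were not normalized again. A gene was read from its brightest probe set and tested if that lay above the array median in 3 or more arrays. Probe sets listed with several symbols were given to no gene. Group means were fitted with limma 3.58.1 in R 4.3.3 (empirical Bayes with intensity trend, two-sided, Benjamini-Hochberg over 12578 genes, threshold 0.05), after a test on simulated data. Replicate numbers were not used as pairs. Promoters were aligned globally with Biopython 1.88. All 10 members are named by role. From each list up to 4 genes with the smallest adjusted p are named, and other genes of the pathway lists as examples. Members and lists were chosen with earlier results of these data known. Protein sequences were not used here.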

Additional observations from a re-analysis of the deposited data

How the results depend on the processing

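The averaged calls of Ugt2b34, Ugt2b35 and Ugt2b37 held in all 10 alternatives and in all 18 fits that leave out 1 array, and the count of members called stayed at 3 to 4 in both. Ugdh was lost in 4 of the 10 alternatives. The averaged count over all genes was 371 to 698 with 1 array left out, the lowest without replicate 2 of the knockout canola group. Repeated quantile normalization moved the share of higher calls to 71%. On lard 0 members were called under that normalization, centring, the mean of probe sets, the filter at the 75th percentile, no intensity trend and 1 test per probe set (an alternative added after seeing the data), and 2 (Ugt2b35 and Ugt2b37) under array weights and under the replicate block. With 1 array left out the member count was 0 to 1 on lard and 0 to 1 on fish/fungal oil. All-gene counts moved to 70 on lard (filter at the 75th percentile), to 90 (array weights) and 1 (only the groups compared) on canola, and to 24 (mean of probe sets) and 22 (only the groups compared) on fish/fungal oil. For the diets they moved to 50 under centring and 50 under array weights (fish/fungal minus canola, control), 2 with only the groups compared (canola minus lard, control), 30 under array weights and 12 with only the groups compared (fish/fungal minus lard, knockout), and 13 under the replicate block and 10 with only the groups compared (fish/fungal minus canola, knockout). With only the groups compared 1 member, Ugdh, was called for fish/fungal minus lard in controls. Leaving out 1 array gave all-gene counts of 30 to 161 on lard, 3 to 28 on canola and 13 to 43 on fish/fungal oil. For the diets it gave 41 to 93, 19 to 48 and 0 to 2 in controls (fish/fungal minus lard, fish/fungal minus canola, canola minus lard), 12 to 116 and 5 to 30 in knockouts (the first 2 of these pairs), and 0 to 1 for the interaction. Ugt2b38 ran from -0.187 to 0.182. Its sign, with an adjusted p of 0.767 or more, is not settled. The cause of these moves was not tested. Same-numbered arrays of different groups had correlated deviations of -0.397 to 0.458 (median -0.008), with 17 of 45 pairs over 0.1. Pairs with different numbers had a median of -0.0407, and 6 of 18 arrays matched their own number best. This check does not settle whether the numbers pair the samples. With 3 pools a group, small differences within a diet are not resolved, and array signal close to the array median, as for Ugt2b37 in controls, limits its fold.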
